A study of Mus musculus with 8 samples.

Results

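The 10 genes described here are immediate early genes outside the AP-1 family: the EGR factor genes Egr1, Egr2 and Egr3, the nuclear receptor gene Nr4a1, the IER genes Ier2, Ier3 and Ier5, the stress factor gene Atf3, and Zfp36 and Btg2, which act on mRNA turnover. They were chosen by symbol, with earlier results of these data known. The shares of all genes set beside their counts below are therefore descriptions, not an independent test. Each matched 1 of the 46078 gene identifiers in the deposited count table, and all 10 passed the filter on low counts and were among the 16495 genes tested. RNA was sequenced in 8 libraries of Lgr5-traced cells, sorted from mouse epidermis once the skin barrier had been injured and labelled hair follicle stem cells, from mice without regulatory T cells (Treg-depleted, n = 4) and with them (Treg-sufficient, n = 4). All 8 carry the strain label Lg5-egfp-ires-creert2/R26-tdTomato, in which an inducible Cre under Lgr5 control turns on the red reporter tdTomato. Because recombination is permanent, progeny keep the mark after Lgr5 itself is off, so traced cells need not be stem cells when sorted. Both conditions were injured, and no library of uninjured skin was analysed here. Each condition has 2 libraries in each of 2 experiments, with replicates 1 and 2 in experiment 1 and replicates 3 and 4 in experiment 2. The sources used here do not give the way regulatory T cells were removed, the means of injury, the time of sampling or the age of the mice. Nor do the labels say that replicates came from separate animals, so p-values measure only the spread between these samples. That spread may be technical in part, but in experiment 1 the replicates differed in Xist, a transcript of female cells (values below).

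Immediate early genes are transcribed within minutes of a stimulus from factors already present in the cell, without new protein synthesis. Growth factors, wounding, cytokines and mechanical or chemical stress act through MAP kinases on serum response factor and its ternary complex partners at CArG boxes, and through kinases on CREB and ATF factors at cyclic AMP response elements (CRE). The products then turn on later genes (EGR, NR4A and ATF3 proteins) or shorten the response by removing transcripts (Zfp36, Btg2). In skin such genes are induced at wound edges, and tissue dissociation and sorting also induce them.

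Promoter sequence was at hand for 7 of the 10 genes, from RefSeq windows on GRCm38.p6, and the 250 bases before each start site were searched on both strands for 7 motifs. A CArG box, the site of serum response factor, was found in 2 of the 7, against 1.47% of 32851 mouse windows of the same length. The full CRE, TGACGTCA, was found in 1 of the 7 (1.55% of windows) and its core TGACG in 4 (17.8%), where the full site counts again as a core match on each strand. The EGR site GCGGGGGCG was found in 2 (2.57%). None of the 7 held GCGTGGGCG (0.536%), the AP-1 site TGANTCA (6.75%) or the NR4A site AAAGGTCA (1.34%). Ier3 and Ier5 held none of the 7 motifs. The sequences below, 5′ to 3′ on the gene's strand, show a promoter of each kind, with matches in capitals. Egr2 (chr10:67537689-67537868, plus strand) has 5 RefSeq start sites, of which 1 that coincides with an annotated transcript start was used. Its matches hold for that start only. It has a CArG box that begins 72 bases before this start, in capitals, and its core CRE matches are left in lower case. Zfp36 (chr7:28379267-28379296, minus strand) has one that begins 58 bases before the start; the stretch lies in an exon of a longer annotated transcript, so only 30 bases are shown. Btg2 (chr1:134079156-134079335, minus strand) has a full CRE that begins 166 bases before the start. Nr4a1 (chr15:101266666-101266845, plus strand) has 2 core CREs and an EGR site in this stretch, all shown as they read on the opposite strand, so that the capitals read CGTCA and CGCCCCCGC. Ier5 (chr1:155099637-155099816, minus strand) is shown as a gene with no match. A match is a run of letters, not a measured binding site.
Egr2: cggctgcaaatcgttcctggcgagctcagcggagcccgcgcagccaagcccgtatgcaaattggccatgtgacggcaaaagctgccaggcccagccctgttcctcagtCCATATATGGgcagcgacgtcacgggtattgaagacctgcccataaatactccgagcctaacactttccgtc
Zfp36: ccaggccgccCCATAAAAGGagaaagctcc
Btg2: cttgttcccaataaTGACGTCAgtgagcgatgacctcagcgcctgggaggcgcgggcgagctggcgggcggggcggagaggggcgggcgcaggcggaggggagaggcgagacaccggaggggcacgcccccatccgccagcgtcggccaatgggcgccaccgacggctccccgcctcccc
Nr4a1: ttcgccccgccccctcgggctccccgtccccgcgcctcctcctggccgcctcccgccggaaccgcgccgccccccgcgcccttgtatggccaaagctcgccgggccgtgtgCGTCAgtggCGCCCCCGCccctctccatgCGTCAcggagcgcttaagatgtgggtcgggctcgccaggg
Ier5: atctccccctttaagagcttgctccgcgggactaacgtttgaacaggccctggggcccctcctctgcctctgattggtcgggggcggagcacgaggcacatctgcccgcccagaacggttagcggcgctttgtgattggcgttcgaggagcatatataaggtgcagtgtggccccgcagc

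The libraries held 22330729 to 29975347 counts over genes, and the least abundant of the 10 genes had 381 to 1274 counts per library. Lgr5 had 308 to 518 CPM (its count scaled to library size) in the Treg-depleted group and 355 to 491 CPM in the Treg-sufficient group, and Krt5, a keratin of basal keratinocytes, averaged 8521 ± 3014 CPM in Treg-depleted libraries and 9582 ± 1868 CPM in Treg-sufficient ones (SD, n = 4 each). Of leukocyte markers, the T cell receptor chain Cd3e was at 0 in all 4 Treg-depleted and 3 of 4 Treg-sufficient libraries, and Ptprc did not exceed 0.206 CPM in any Treg-depleted library or 0.400 CPM in any Treg-sufficient library. Libraries did not match in other ways. Xist, transcribed from the inactive X chromosome of females, stood at 72.0 CPM in Treg-depleted replicate 2, at 2713 CPM in Treg-sufficient replicate 2 and at 0.968 to 2.26 CPM in the other 6. Treg-depleted replicate 2 and Treg-sufficient replicate 3 held counts for the fewest genes (18605 and 19593). Treg-sufficient replicate 2 had the lowest level of the 8 libraries for 9 of the 10 genes.

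The main pattern was that 8 of the 10 genes, all but Egr3 and Ier5, had a log2 fold change above 0 for Treg-depleted over Treg-sufficient libraries (50.3% of all genes tested did). The median over all 10 was 2.32 within experiment 1 and 0.31 within experiment 2. The difference between the experiments' effects itself passed for none of the 10 (lowest edgeR adjusted p = 0.148). Btg2 averaged 3.79 times, Atf3 3.36 times, Zfp36 3.13 times and Egr1 2.81 times as much in Treg-depleted libraries. Between conditions none of the 10 passed the test over all genes, nor did any other gene (0%). Within experiment 1, Egr1 and Ier2 rose, as did 0.224% of all genes. Log2 fold changes were above 0 for 8 of the 10 genes in experiment 1 (52% of all genes) and for 6 of the 10 in experiment 2 (50.2%). Because each library is a bulk sample, a higher level may come from more RNA per cell or from more cells that hold it, and these cannot be told apart here.

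**Figure D1:**
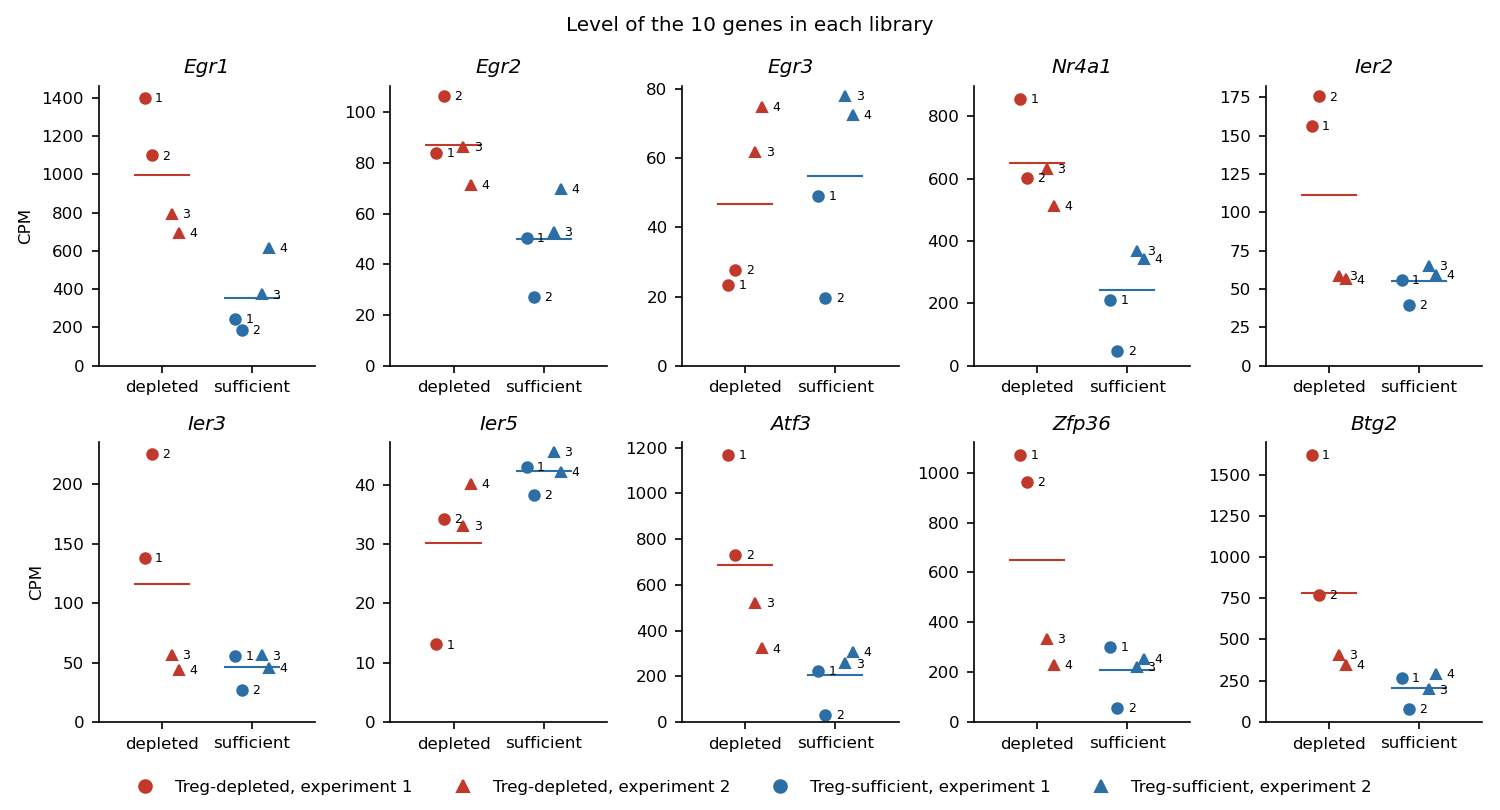
Level of each gene in each library, in CPM (vertical axes, linear, from 0), with Treg-depleted libraries in red on the left and Treg-sufficient libraries in blue on the right of each panel. Circles are experiment 1, triangles experiment 2, numbers the replicates and lines the mean of 4. For Btg2 the 4 Treg-depleted libraries sit between 345 and 1619 CPM, all above the Treg-sufficient ones, while Treg-sufficient replicate 2 is lowest in every panel but that of Ier5.

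Among the EGR genes, which encode zinc finger transcription factors, Egr1 had the highest level per kilobase of exon. Egr1 (ENSMUSG00000038418, GRCm38 chromosome 18, 34859823 to 34864984, plus strand, protein-coding) responds to serum, wounding and stress. It stood at 1401, 1099, 793 and 695 CPM in Treg-depleted replicates 1 to 4, against 246, 185, 373 and 616 CPM in Treg-sufficient replicates 1 to 4. The groups did not overlap, and the 2 highest libraries were the Treg-depleted ones of experiment 1. Its log2 fold change between conditions was 1.56 (SE 0.40, unadjusted p = 0.0037, edgeR adjusted p = 0.686). In experiment 1 the means were 1250 ± 213 CPM in the Treg-depleted and 216 ± 43.1 CPM in the Treg-sufficient pair (SD, n = 2 each), a log2 fold change of 2.54 (SE 0.28, edgeR adjusted p = 0.0167). In experiment 2 they were 744 ± 69.3 CPM in the Treg-depleted pair and 494 ± 172 CPM in the Treg-sufficient pair, a log2 fold change of 0.59 (SE 0.27, edgeR adjusted p = 1).

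Egr2 (ENSMUSG00000037868, chromosome 10, 67535475 to 67542188, plus strand) is known in the mouse follicle from progenitors of the hair shaft. It stood at 83.8, 106, 86.5 and 71.4 CPM in Treg-depleted replicates, against 50.4, 27.2, 52.6 and 69.8 CPM in Treg-sufficient replicates. The groups did not overlap, although Treg-depleted replicate 4 and Treg-sufficient replicate 4 lay close to each other. The log2 fold change was 0.83 (SE 0.25, edgeR adjusted p = 0.686), with 1.29 in experiment 1 (SE 0.30, adjusted p = 0.113) and 0.37 in experiment 2 (SE 0.29, adjusted p = 1). Egr3 (ENSMUSG00000033730, chromosome 14, 70077203 to 70082614, plus strand), the third EGR gene, went another way. It stood at 23.3, 27.6, 61.9 and 74.7 CPM in Treg-depleted replicates, against 49.2, 19.7, 78.0 and 72.6 CPM in Treg-sufficient replicates. Here the experiment, not the condition, split the libraries: all 4 libraries of experiment 2 were above all 4 of experiment 1, as for 7.5% of genes tested. The log2 difference between experiments, experiment 2 over experiment 1, was 1.28 (SE 0.25, edgeR adjusted p = 0.0483), and between conditions it was -0.29 (SE 0.25, adjusted p = 0.791). Egr3 was the only one of the 10 that passed between experiments, where 1.62% of all genes passed and 0.903% were higher in experiment 2. That call ended with upper-quartile factors (adjusted p = 0.0516) and when any single library other than Treg-sufficient replicate 1 was left out (adjusted p = 0.0664 to 0.158).

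Nr4a1 (ENSMUSG00000023034, chromosome 15, 101254269 to 101274795, plus strand) encodes an orphan nuclear receptor induced by growth factors and calcium. It stood at 856, 602, 630 and 512 CPM in Treg-depleted replicates, against 210, 46.2, 367 and 342 CPM in Treg-sufficient replicates. All Treg-depleted libraries were above all Treg-sufficient ones, and Treg-sufficient replicate 1 was 4.54 times as high as replicate 2 of the same condition and experiment. The log2 fold change was 1.60 (SE 0.52, edgeR adjusted p = 0.686), with 2.51 in experiment 1 (SE 0.59, adjusted p = 0.124) and 0.69 in experiment 2 (SE 0.56, adjusted p = 1).

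Atf3 (ENSMUSG00000026628, chromosome 1, 191170296 to 191218039, minus strand) encodes a basic leucine zipper factor of the ATF and CREB family, induced by cellular stress. It stood at 1167, 732, 520 and 322 CPM in Treg-depleted replicates, against 222, 29.8, 256 and 308 CPM in Treg-sufficient replicates. The groups did not overlap, but Treg-depleted replicate 4 lay only just above the highest Treg-sufficient library, and the 2 Treg-sufficient libraries of experiment 1 differed 7.46 times. Its log2 fold change of 1.75 between conditions was the highest of the 10 and had the widest error (SE 0.69, edgeR adjusted p = 0.694). Within experiment 1 it was 2.91 (SE 0.79, adjusted p = 0.174) and within experiment 2 0.58 (SE 0.73, adjusted p = 1).

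The 3 IER genes did not move as a group. Ier2 (ENSMUSG00000053560, chromosome 8, 84661331 to 84662852, minus strand) encodes a nuclear protein linked to transcriptional control. It stood at 156, 176, 58.3 and 56.2 CPM in Treg-depleted replicates, against 55.9, 39.7, 65.3 and 59.0 CPM in Treg-sufficient replicates. Both Treg-depleted libraries were above both Treg-sufficient ones in experiment 1 and below both in experiment 2. In experiment 1 the means were 166 ± 13.7 CPM in the Treg-depleted pair and 47.8 ± 11.5 CPM in the Treg-sufficient pair (SD, n = 2 each), a log2 fold change of 1.80 (SE 0.18, edgeR adjusted p = 0.0144). In experiment 2 the log2 fold change was -0.12 (SE 0.18, adjusted p = 1), and over both it was 0.84 (SE 0.36, adjusted p = 0.696).

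Ier3 (ENSMUSG00000003541, chromosome 17, 35821684 to 35822923, plus strand) encodes a stress-inducible protein that affects survival of the cell, and its transcript is a known target of Zfp36. It stood at 138, 226, 56.3 and 44.0 CPM in Treg-depleted replicates, against 55.9, 27.0, 56.0 and 45.6 CPM in Treg-sufficient replicates. As for Ier2, 2 Treg-depleted libraries stood out and the other 2 lay close to the Treg-sufficient ones. The log2 fold change was 1.06 over both experiments (SE 0.46, edgeR adjusted p = 0.696), 2.13 in experiment 1 (SE 0.37, adjusted p = 0.0564) and -0.02 in experiment 2 (SE 0.36, adjusted p = 1). Ier5 (ENSMUSG00000056708, chromosome 1, 155096361 to 155099636, minus strand), which acts with heat shock factor, stood at 13.1, 34.3, 33.1 and 40.2 CPM in Treg-depleted replicates, against 43.1, 38.3, 45.6 and 42.2 CPM in Treg-sufficient replicates. Both Treg-depleted libraries were below both Treg-sufficient ones in each experiment, as for 3.23% of all genes tested, with Treg-depleted replicate 1 lowest by far. The log2 fold change was -0.52 (SE 0.27, edgeR adjusted p = 0.696), with -0.79 in experiment 1 (SE 0.38, adjusted p = 0.505) and -0.26 in experiment 2 (SE 0.37, adjusted p = 1).

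Zfp36 and Btg2 act on transcripts after they are made. Zfp36 (ENSMUSG00000044786, chromosome 7, 28376784 to 28380253, minus strand) encodes tristetraprolin, which binds AU-rich elements and hastens mRNA decay. It stood at 1072, 965, 332 and 229 CPM in Treg-depleted replicates, against 301, 56.2, 221 and 252 CPM in Treg-sufficient replicates. The groups overlapped, since Treg-depleted replicate 4 was below Treg-sufficient replicates 1 and 4. The log2 fold change was 1.38 (SE 0.61, edgeR adjusted p = 0.696), with 2.51 in experiment 1 (SE 0.64, adjusted p = 0.155) and 0.25 in experiment 2 (SE 0.61, adjusted p = 1). An annotated antisense gene overlaps exons of Zfp36 but is not among the identifiers counted. The sources used here do not name the strand setting of the counting, so reads of the antisense gene may have been counted as Zfp36.

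Btg2 (ENSMUSG00000020423, chromosome 1, 134075170 to 134079120, minus strand) encodes an antiproliferative protein that recruits a deadenylase to mRNA and is also a target of p53. It stood at 1619, 769, 405 and 345 CPM in Treg-depleted replicates, against 264, 77.0, 197 and 289 CPM in Treg-sufficient replicates. The groups did not overlap, and Treg-depleted replicate 1 was 2.11 times as high as replicate 2. The log2 fold change was 1.72 (SE 0.56, edgeR adjusted p = 0.686), with 2.81 in experiment 1 (SE 0.58, adjusted p = 0.0881) and 0.63 in experiment 2 (SE 0.55, adjusted p = 1).

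Counted together, all 4 Treg-depleted libraries lay above all 4 Treg-sufficient libraries for 5 of the 10 genes (Egr1, Egr2, Nr4a1, Atf3 and Btg2), against 1.27% of the 16495 genes tested. The median log2 fold change of the 10 between conditions was 1.22, against 0.00195 over all genes tested. By edgeR 0 of the 10 passed and 0% of all genes did, while 8 of the 10 had an unadjusted p under 0.05, against 7.12% of all genes. The 2 others were Egr3 and Ier5. DESeq2 called 1 of the 10 between conditions, Egr1 (adjusted p = 0.00951), with 84 genes called in all. For limma-voom no gene passed, of the 10 or otherwise. The median fell to 0.70 without Treg-sufficient replicate 2 and to 0.61 without the 2 libraries with the most Xist reads (replicate 2 of each condition), with 8 of 10 log2 fold changes above 0 in each case.

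Within experiment 1, both Treg-depleted libraries lay above both Treg-sufficient libraries for 8 of the 10 genes, against 18.6% of genes tested, and the median log2 fold change was 2.32, against 0.0148 over all genes. Egr1 and Ier2 passed by edgeR, 2 of 10, against 0.606% of all genes. DESeq2 called 8 of the 10 there, with 721 genes called in all, and limma-voom 3 of the 10, with 82 in all. Of the 10, 8 had an unadjusted p under 0.05 (11.1% of all genes). Within experiment 2 the same separation held for 5 of the 10 genes, against 16.7% of genes tested, and the median was 0.31, against 0.00119. By edgeR 0 of 10 passed (0% of all genes), and 0 had an unadjusted p under 0.05 (1.75% of all genes). DESeq2 called none of the 10 there either, and 1 gene in all. The test of the difference itself, the log2 fold change of experiment 1 minus that of experiment 2, passed for none of the 10 and for 0% of all genes by edgeR. Ier2 came nearest (1.91, SE 0.25, unadjusted p = 7.04e-05, edgeR adjusted p = 0.148), followed by Egr1 (1.94, SE 0.38, adjusted p = 0.299) and Ier3 (2.15, SE 0.51, adjusted p = 0.393). In all 5 of the 10 had an unadjusted p under 0.05 for this difference, against 5.6% of all genes. DESeq2 called 3 of the 10 for it, with 182 genes called in all. A difference between the experiments is therefore not shown by the edgeR test.

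**Figure D2:**
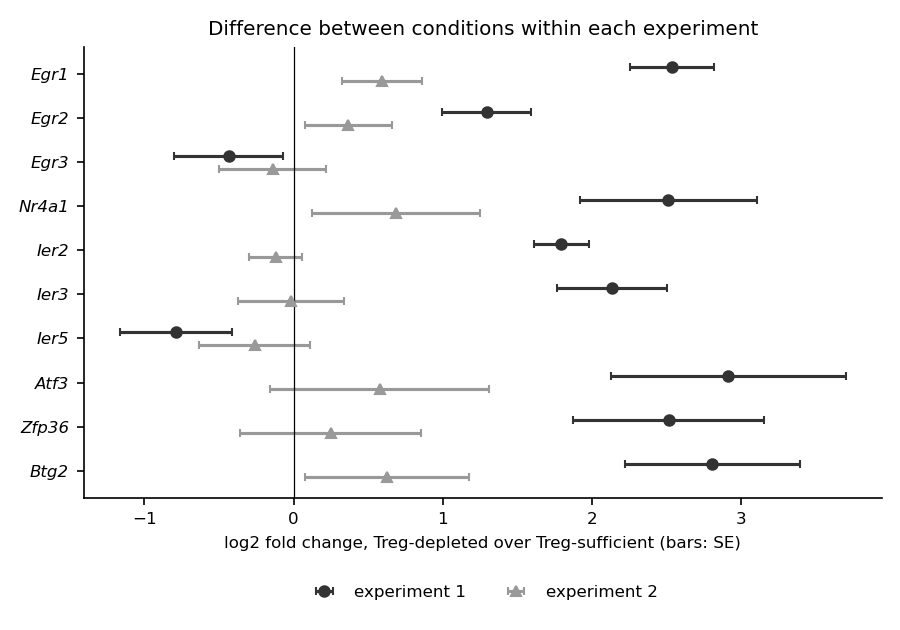
Log2 fold change of Treg-depleted over Treg-sufficient libraries (horizontal axis) for each gene, with circles for experiment 1, triangles for experiment 2 and bars for ± 1 SE from the edgeR fit. In experiment 1, 8 genes lie between 1.29 and 2.91, and Egr3 and Ier5 lie below 0; in experiment 2 all 10 lie between -0.26 and 0.69.

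The experiment 1 values leaned on single libraries. Without Treg-sufficient replicate 2 the median log2 fold change was 1.69 and no gene of the 10 passed, with Egr1 at 2.31 (edgeR adjusted p = 0.0812) and Ier2 at 1.53 (adjusted p = 0.0530). Without Treg-sufficient replicate 1 the median was 2.75, and Nr4a1 (3.98, adjusted p = 0.0103), Atf3 (4.99, adjusted p = 0.0202), Zfp36 (4.18, adjusted p = 0.00909) and Ier2 (2.06, adjusted p = 0.0202) passed, while Egr1 did not (2.75, adjusted p = 0.0638). Leaving out Treg-depleted replicate 2 gave Ier5 a log2 fold change of -1.67 (adjusted p = 0.0122) and Btg2 one of 3.21 (adjusted p = 0.0386). The Egr1 call also ended without Treg-depleted replicate 3 or 4 of the other experiment (adjusted p = 0.0520 and 0.0515), and the Ier2 call without Treg-depleted replicate 3 (adjusted p = 0.0501), although the fold changes themselves stayed at 2.53 and 1.79. In these fits a group of 1 library is taken to vary like the other groups. Without the 2 libraries with the most Xist reads experiment 1 is 1 library against 1, and the spread between libraries comes from experiment 2 alone. The median was then 1.61, with 8 of 10 log2 fold changes above 0. The values above 0 ran from 0.69 (Egr2) to 2.57 (Btg2), with Egr3 at -1.12 and Ier5 at -1.76. Calls from that fit have no replicate check within experiment 1. The direction in experiment 1 was kept by 9 of the 10 genes with any single library left out, and Egr3 turned to 0.37 without Treg-sufficient replicate 1.

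**Figure D3:**
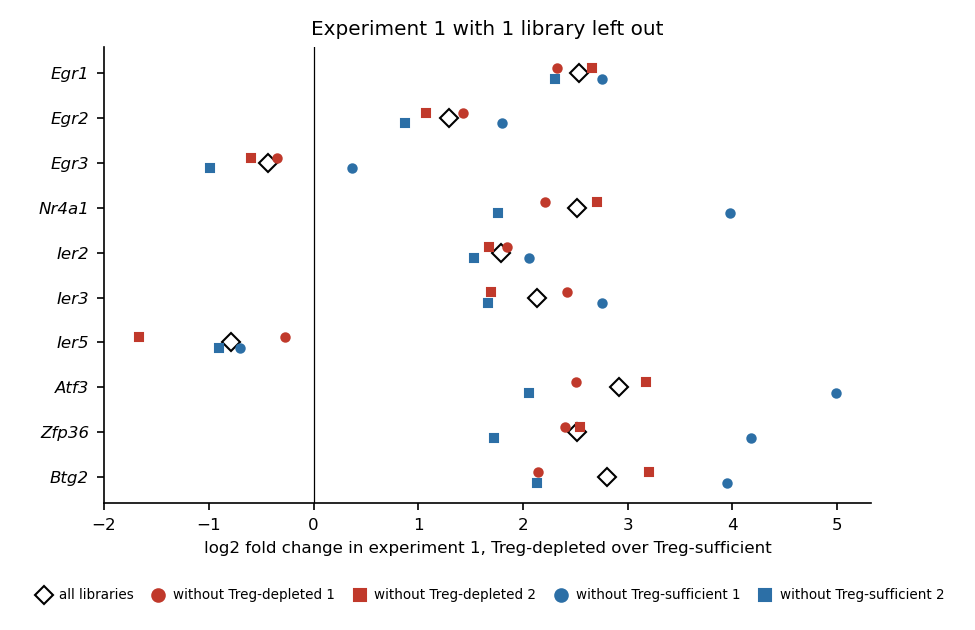
Log2 fold change in experiment 1, Treg-depleted over Treg-sufficient (horizontal axis), for each gene with all libraries (diamonds) and with 1 of the 4 libraries of that experiment left out (red for a Treg-depleted, blue for a Treg-sufficient library; circles for replicate 1, squares for replicate 2). Atf3 runs from 2.06 without Treg-sufficient replicate 2 to 4.99 without Treg-sufficient replicate 1, and Egr1 from 2.31 to 2.75.

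Levels can be set side by side between genes only per kilobase of exon, here the exons of all annotated transcripts of a gene together. For Zfp36 these cover the full gene span of 3470 bases, including a longer transcript, so its place in the order depends on the annotation. In Treg-depleted libraries the mean was highest for Atf3 (318 ± 168 CPM per kb, SD, n = 4), followed by Btg2 (286.0 ± 214), Egr1 (222 ± 71.3), Zfp36 (187 ± 124), Nr4a1 (185 ± 41.7), Ier3 (102.5 ± 74.4), Ier2 (73.3 ± 41.5), Egr2 (25.6 ± 4.27), Egr3 (10.7 ± 5.75) and Ier5 (9.21 ± 3.60). Neighbours in this order differed by less than the larger SD of the pair, except Nr4a1 and Ier3, Ier2 and Egr2, and Egr2 and Egr3. In Treg-sufficient libraries Atf3 was again highest (94.7 ± 56.3 CPM per kb, SD, n = 4), followed by Egr1 (79.2 ± 42.5), Btg2 (75.4 ± 34.6), Nr4a1 (68.8 ± 42.0), Zfp36 (59.8 ± 30.5), Ier3 (40.8 ± 12.1), Ier2 (36.1 ± 7.17), Egr2 (14.7 ± 5.15), Ier5 (12.9 ± 0.922) and Egr3 (12.5 ± 6.03). There only Ier2 and Egr2 differed by more than the larger SD. Egr2, Egr3 and Ier5 were thus the 3 lowest in both conditions, and the order among the upper 7 was mostly within the spread.

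The 10 genes varied together across libraries, apart from Egr3 and Ier5. The Pearson correlation over the 8 libraries of each gene's log2 CPM with the mean of the other 9 (standardized) was 0.97 for Atf3, 0.96 for Egr2, 0.94 for Nr4a1, 0.92 for Zfp36, 0.87 for Egr1 and Btg2, 0.78 for Ier3 and 0.75 for Ier2, but 0.03 for Egr3 and -0.53 for Ier5. Without Treg-sufficient replicate 2, the first 8 stood at 0.79 to 0.89 and Egr3 and Ier5 at -0.84 and -0.76. These are descriptions: the points share the 2 conditions, the experiments and the library depths. Among 11264 genes with a mean of at least 5 CPM and not of the 10, those most like the mean of the 10 were Fos (0.97), Junb (0.96), Fosb (0.96), Jun (0.96), Plk3 (0.95), Ptp4a1 (0.95), Csrnp1 (0.94), Nfkbiz (0.94), Dusp1 (0.93) and Tiparp (0.93). Fos, the AP-1 subunit at the top, stood at 2285, 1538, 1569 and 1111 CPM in Treg-depleted replicates, against 664, 125, 707.5 and 947 CPM in Treg-sufficient replicates, with Treg-sufficient replicate 2 lowest again. Without that library its correlation was 0.87 and that of Nfkbiz, a co-activator of NF-kappaB, 0.98.

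Other genes of the same response were followed in lists by role. Of all genes tested 0.224% rose and 0.606% passed in either direction in experiment 1. Of 7 AP-1 subunits, partners of the 10 in the same early wave, 2 rose there: Jun (log2 fold change 1.73, edgeR adjusted p = 0.0416) and Jund (1.34, adjusted p = 0.0237). The median of the 7 was 1.73. Fos (2.28, adjusted p = 0.213) and Fosb (2.72, adjusted p = 0.199) were the most abundant and did not pass. Of 32 other early response genes 7 rose and 0 fell, with a median of 1.27. They were Cebpd, a factor of the acute-phase response (3.49, adjusted p = 0.0151), the EGF receptor inhibitor Errfi1 (2.61, 0.0247), the MAP kinase phosphatases Dusp1 (2.46, 0.0482) and Dusp6 (1.63, 0.0144), the zinc finger factor Klf6 (1.97, 0.0397), the pseudokinase Trib1 (1.45, 0.0237) and the interferon factor Irf1 (1.44, 0.0364), where the second value is the edgeR adjusted p. Sgk1 (1.37, adjusted p = 0.0858) and Ccn2 (1.54, adjusted p = 0.130) were the most abundant of that list and did not pass. In experiment 2 no gene of either list passed, with medians of 0.28 and 0.20. The 9 genes kept their direction in all alternatives, but no AP-1 subunit and only 2 other early genes passed in experiment 1 without Treg-depleted replicate 1, without Treg-depleted replicate 4 or without Treg-sufficient replicate 2, 3 or 4. None of the 39 passed without Treg-depleted replicate 3.

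Of 10 close relatives, family members and EGR corepressors, none passed in any comparison by edgeR, and 8 had log2 fold changes above 0 in experiment 1, with a median of 0.59 in experiment 1 and -0.000602 in experiment 2. The orphan receptors Nr4a3 and Nr4a2 had 2.62 (SE 0.65) and 1.72 (SE 0.46) in experiment 1. Egr4, with at most 42 counts in any library, had 2.96 there (SE 1.22, edgeR adjusted p = 0.426). The most abundant, Zfp36l2, another AU-rich element binder, had 1.07 (SE 0.18, edgeR adjusted p = 0.0516), and Btg1 had 0.63 (SE 0.17, adjusted p = 0.174). Nab2, a corepressor of EGR proteins that EGR factors themselves induce, had -0.67 in experiment 1 (SE 0.16, adjusted p = 0.137) and -0.40 in experiment 2.

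Among genes that act before the early genes or by other routes to them, none passed between conditions in experiment 1, and their medians there ran from near 0 to 0.81. For 17 upstream factors and kinases the median log2 fold change was 0.01, and the MAP kinase gene Mapk3 had -0.09 (SE 0.15, edgeR adjusted p = 0.914). Srf, which encodes serum response factor, stood at 133 and 131 CPM in the Treg-depleted libraries of experiment 1, against 86.1 and 77.6 CPM in its Treg-sufficient libraries. Both Treg-depleted libraries were above both Treg-sufficient ones there, as for 18.6% of all genes tested. The log2 fold change of Srf, 0.69, just missed the threshold (SE 0.12, unadjusted p = 0.000437, edgeR adjusted p = 0.0567), with 0.11 in experiment 2 (SE 0.12). It was the 1 gene of the 17 with an unadjusted p under 0.05 in experiment 1, where 11.1% of all genes had one. For 11 p53 targets, which bear on Btg2, the median was 0.11, with Trp53inp1 at 0.88 (adjusted p = 0.458) and Trp53 at -0.11 (adjusted p = 0.892), and 0 passed. For 10 genes of the integrated stress response, which bear on Atf3, the median was 0.31 and 0 passed, with Ppp1r15a at 1.59 (adjusted p = 0.0937) and Atf4 at 0.66 (adjusted p = 0.180). Of 14 transcripts known as targets of Zfp36, 8 were abundant enough to test, 0 passed between conditions in experiment 1 and the median was 0.81, with Ier3 and Vegfa (1.18, adjusted p = 0.0660) the most abundant. One of them, the chemokine gene Ccl2, fell in experiment 2 relative to experiment 1 by 1.61 on the log2 scale (SE 0.32, with an edgeR adjusted p just under 0.05), as did Ccn2 (-1.59, edgeR adjusted p = 0.0457). The Ccl2 call ended with any single library left out, and that of Ccn2 with 7 of the 8.

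**Figure D4:**
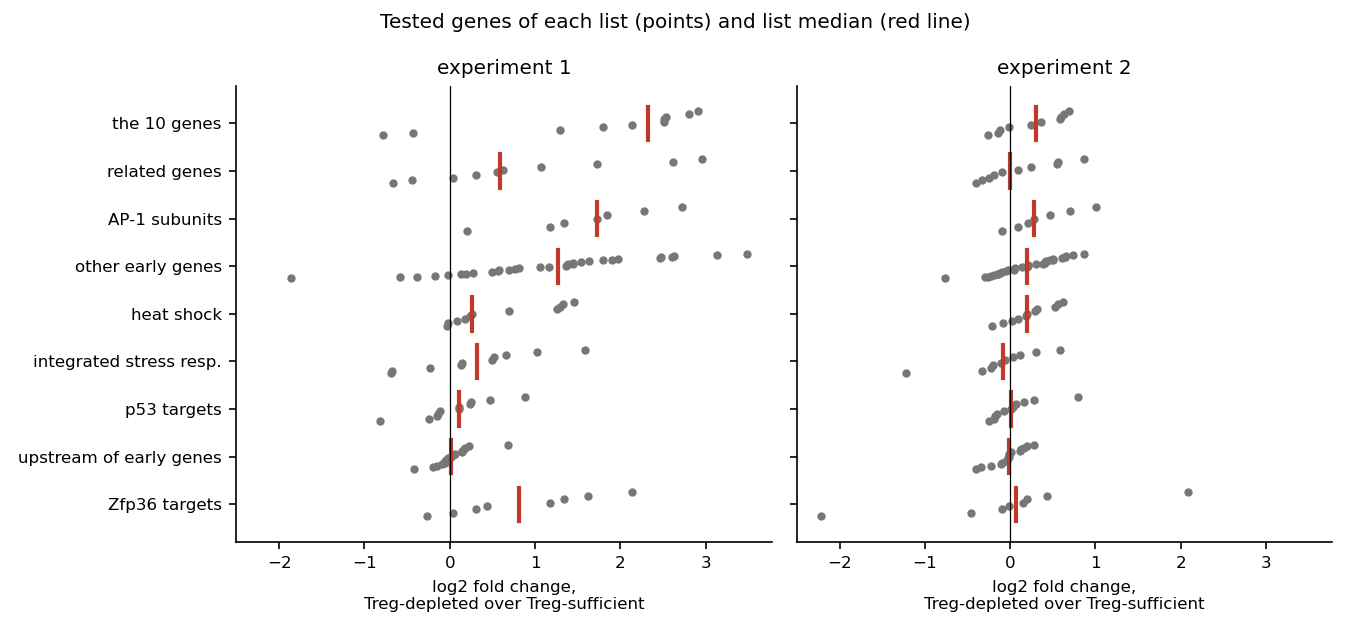
Log2 fold change, Treg-depleted over Treg-sufficient (horizontal axis, the same in both panels), of every tested gene of each list (grey points) with the list median (red line), in experiment 1 on the left and experiment 2 on the right. In experiment 1 the medians are 2.32 for the 10 genes, 1.73 for AP-1 subunits, 1.27 for other early genes and 0.01 for upstream factors, and in experiment 2 they lie between -0.09 and 0.31.

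Signs of handling and of other cells were measured beside these values. Of 11 heat shock genes, which dissociation can induce, Hspb1 rose in experiment 1 (396 ± 44.1 CPM in Treg-depleted, 162 ± 2.02 CPM in Treg-sufficient libraries, SD, n = 2 each, edgeR adjusted p = 0.0167) and the median log2 fold change was 0.26 there, with Hspa8, the most abundant, at 0.26 (SE 0.25) and Hspa1b at 1.32 (SE 0.26, adjusted p = 0.0768). Its near-identical copy Hspa1a had 1.46 (SE 0.27, edgeR adjusted p = 0.0660), and the split of reads between the pair is uncertain. Between conditions 10 of the 11 had log2 fold changes above 0, with a median of 0.37, and 6 had an unadjusted p under 0.05 (7.12% of all genes). In experiment 1 these numbers were 9 and 5 (11.1% of all genes). The Hspb1 call ended without any 1 of Treg-depleted replicates 3 and 4 and Treg-sufficient replicates 1 and 2. Summed heat shock CPM ran from 3569 to 4215 in Treg-depleted and from 2331 to 3548 in Treg-sufficient libraries, with Treg-sufficient replicate 2 lowest. Summed markers of fibroblasts were 19.3 and 21.2 CPM in the Treg-depleted libraries of experiment 1, against 89.4 and 36.8 CPM in its Treg-sufficient libraries, and in experiment 2 they were 67.5 and 48.8 CPM in Treg-depleted libraries, against 70.2 and 104 CPM in Treg-sufficient ones. Of 6 fibroblast markers tested 0 passed. Their median log2 fold change was -2.17 in experiment 1 and 0.01 in experiment 2. In experiment 1, 3 of the 6 were lower with an unadjusted edgeR p under 0.05 (11.1% of all genes had one in either direction). Macrophage and Langerhans cell markers summed to 6.12 to 14.5 CPM in the Treg-depleted and 4.58 to 7.62 CPM in the Treg-sufficient group, and neutrophil markers to 1.17 to 9.60 CPM in Treg-depleted and 0.728 to 2.25 CPM in Treg-sufficient libraries, with Ly6g and Retnlg at 0 in every library. In Treg-depleted libraries melanocyte markers summed to 19.6 to 164 CPM, endothelial markers to 1.86 to 4.01, T cell markers to 0.412 to 1.14 and red blood cell markers to 0.568 to 1.44. In Treg-sufficient libraries the same sums were 31.0 to 365 CPM for melanocyte, 3.92 to 8.01 for endothelial, 0.478 to 2.33 for T cell and 0.993 to 3.09 for red blood cell markers. Regulatory T cell markers summed to 6.53 to 37.5 CPM in Treg-depleted and 5.72 to 14.2 CPM in Treg-sufficient libraries, mostly from Ikzf2. Foxp3, which defines these cells, did not exceed 0.722 CPM in any Treg-depleted and 0.799 CPM in any Treg-sufficient library. Markers of the sorted cells overlapped too: keratinocyte markers summed to 11840 to 24870 CPM in the Treg-depleted and 13750 to 20600 CPM in the Treg-sufficient group, and follicle stem cell markers to 4853 to 9601 CPM in the Treg-depleted and 4943 to 9570 CPM in the Treg-sufficient group. The part of heat shock genes, other cells and Xist reads in the levels of the 10 genes was not tested.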

How the data were processed

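Per the labels' protocols, sorted cells were frozen, RNA was isolated on spin columns, and the TruSeq Stranded mRNA kit gave the libraries. The authors deposited whole-number read counts per gene with no normalization. Per the submitters' processing notes, TopHat2 (version 2), SAMtools, HTSeq, DESeq2 and GRCm38.p4 were used; the sources used here name neither the strand setting nor the annotation release. Reads in no gene made up 6.63 to 10.8% of each library, ambiguous reads 2.72 to 3.01% and multiply aligned reads 26.2 to 30.6%; these tallies were left out. GENCODE M21 (GRCm38) gave symbols for 45229 of 46078 identifiers, coordinates and exon lengths.

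Tests used edgeR 4.0.16 in R 4.3.3 on the counts (TMM factors, filterByExpr with a minimum count of 10, quasi-likelihood F-test, Benjamini-Hochberg adjustment over 16495 genes, threshold 0.05). An additive model of condition and experiment (5 residual degrees of freedom) gave the differences between conditions and between experiments, and a model of 4 groups (4 residual degrees of freedom) gave the effect in each experiment and their difference. SE is the absolute log2 fold change divided by the square root of F. Levels are CPM on TMM-scaled totals, except those of Xist, which are on unscaled totals. The steps were tested on simulated counts. Alternatives were other scaling factors, no filter, a mean count of at least 50, DESeq2 1.42.0, limma-voom (limma 3.58.1), each library left out, the 2 libraries with the most Xist reads left out, a replicate block and no experiment term; a crossed block and leaving out the 2 libraries with the fewest genes were chosen after seeing the data. Replicate numbers were assigned within a condition in deposit order and do not pair samples.

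The 10 genes and all lists were chosen with earlier results of these data known. All 10 are named, as are, of each list, the genes that passed in a comparison and the 2 most abundant (1 such gene is not reported here); a few relatives of the 10 (Nr4a2, Nr4a3, Egr4, Nab2), Srf and Hspa1a were named after their values were seen. Genes with a like pattern are the 10 with the highest correlation.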

Additional observations from a re-analysis of the deposited data

Results flagged for a closer look

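Of the values computed, 3 met a rule fixed for unusual results. In Treg-depleted libraries the summed keratinocyte markers were 24870 CPM in replicate 2, against 11840 to 13950 CPM in the others, a gap of 0.838 of the group's range. In Treg-sufficient libraries the summed endothelial markers were 8.01 CPM in replicate 3, against 3.92 to 4.57 CPM in the others, a gap of 0.842 of the range. Both exceed the 95% critical value of Dixon's test for 4 samples. This was asked of 58 groups of 4, of which chance marks about 1 in 20. Both libraries are also the ones with the fewest genes counted. None of the 10 genes had such a library in either condition.

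For Ier2 both Treg-depleted libraries lay above both Treg-sufficient libraries in experiment 1 and below both in experiment 2. The difference between the effects was 1.91 on the log2 scale and did not pass (edgeR adjusted p = 0.148).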

How the results depend on the processing

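Over 890 values of the 10 genes under the alternatives, 795 kept their direction and their side of the threshold and 21 turned direction, none of them a called value. Between experiments Atf3 (-0.01 in the report) gave 0.00165 with DESeq2 size factors, 0.00353 without the filter, 0.00397 by DESeq2, 0.44 by limma-voom and -0.61 to 0.43 with 1 library left out. Egr1 between experiments ran from -0.10 to 0.52 with 1 library left out (below 0 without Treg-sufficient replicate 2 or 4) and gave -0.0561 without the 2 libraries with the most Xist reads, and Egr2 ran from -0.0504 (without Treg-sufficient replicate 2) to 0.35. In experiment 2 Ier3 gave 0.000851 with upper-quartile factors, -0.21 to 0.15 with 1 library left out (above 0 without Treg-depleted replicate 4 or Treg-sufficient replicate 3) and 0.14 without the 2 libraries with the fewest genes, and Zfp36 ran from -0.0430 (without Treg-depleted replicate 3) to 0.49. Egr3 turned above 0 without Treg-sufficient replicate 1, with ranges of -0.49 to 0.0548 between conditions, -0.99 to 0.37 in experiment 1 and -0.85 to 0.51 for the difference between the experiments' effects. The cause was not tested.

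Counts of called genes moved more. The report's numbers were 0 between conditions, 100 within experiment 1, 0 within experiment 2, 0 for the difference of effects and 268 between experiments. In the same order, no filter gave 820, 1152, 132, 534 and 2443, and DESeq2 gave 84, 721, 1, 182 and 2167. Of the 10 genes 9 were called between conditions without the filter, all but Egr3. Fold changes hardly moved there while p-values fell steeply. For Egr1 in experiment 1 the log2 fold change went from 2.54 to 2.50 and the edgeR adjusted p from 0.0167 to 1.03e-30. The calls without the filter therefore do not come from larger differences, and why the p-values fell was not tested. Without the 2 libraries with the most Xist reads, which leaves 1 library against 1 in experiment 1, the counts were 487 in experiment 1, 89 for the difference and 2 between experiments, and without the 2 libraries with the fewest genes 570 in experiment 1 and 0 between experiments. With 1 library left out they ran from 0 to 442 in experiment 1, from 0 to 9 for the difference and from 0 to 651 between experiments. With a replicate block 2 genes were called in experiment 1, none of the 10 (Egr1 adjusted p = 0.0659, Ier2 0.0693). Same-numbered libraries correlated at 0.199 to 0.432 in their deviations from the condition means, but at -0.249 and -0.238 within experiments. In all, 0 of 8 correlated best with their own number. With 2 libraries per group the deviations within an experiment mirror each other, so these are not 8 separate checks. A pairing by number is not shown. A crossed block, chosen after seeing the data, called 457 genes in experiment 1 and 35 for the difference. With 2 libraries per group and experiment, small differences could not be detected, and some large ones did not pass. In experiment 1 these were Atf3 (log2 fold change 2.91, edgeR adjusted p = 0.174) and Zfp36 (2.51, edgeR adjusted p = 0.155), among others.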
